A study of Homo sapiens with 3 samples.

Results

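The matrix metalloproteinases (MMP), the ADAM and ADAMTS proteases and the tissue inhibitors of metalloproteinases (TIMP) were read in NCI-H1975 cells, an established human lung adenocarcinoma line. Members were the protein-coding genes with a symbol of the form MMP, ADAM or ADAMTS followed by a number, or TIMP1 to TIMP4. They came to 66 of 19056 protein-coding genes with a row: 23 MMP, 20 ADAM, 19 ADAMTS and 4 TIMP genes. The study set cells that had acquired resistance to anlotinib, an inhibitor of several receptor tyrosine kinases, against wild-type cells by RNA-seq and ATAC-seq, and added RNA-seq of resistant cells in which TFAP2A, a transcription factor, was knocked down. Gene counts of 1 library were used here, wild-type replicate 2, from the parental cells of 1 cell line. The resistant and knockdown cells were not analysed here, nor were the 2 wild-type ATAC-seq samples. No cell state was therefore compared with another, no replicate spread could be had and no test was run.

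MMPs cleave collagens, laminins and other matrix proteins, and most are made as inactive precursors whose prodomain must be removed. ADAMs are anchored in the membrane, and the catalytically active ones release the outer parts of growth factors, receptors and adhesion molecules from the cell surface. ADAMTS proteases are secreted and act on proteoglycans, procollagens and other matrix proteins, and TIMPs bind and block the active site of many of these enzymes. In lung tumours these families are studied for their parts in invasion, growth factor release and vessel growth.

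The library held 25012733 counts over 60880 gene rows. A level is given in CPM, which is counts per 1000000 counts of the library, so that 1 count equalled 0.04 CPM. Intervals are 95% Poisson intervals for levels and 95% binomial intervals (exact, Clopper-Pearson) for shares. They cover counting error only and no spread between libraries, because 1 library was used. No molecular identifiers separate PCR copies from independent molecules, so the intervals may be too narrow even for counting error. A gene with at least 10 counts was called detected, and for a gene at 0 a one-sided limit of 3 counts, or 0.12 CPM, is used throughout. Transcript lengths were not used here, so genes are ordered by their numbers of reads, which longer transcripts raise. The library carried the markers of its label: EPCAM, CDH1, KRT8, KRT18 and NKX2-1, which mark epithelium and lung lineage, were all detected, with 2926 to 65584 counts. Of 5 fibroblast markers none was detected (8 counts in all, with DCN, LUM and PDGFRA at 0). The collagen genes COL5A1, COL1A1 and COL1A2, which were not among these fibroblast markers, had 17047, 7847 and 4104 counts. Of 5 leukocyte markers none was detected (5 counts in all, with AIF1 at 0). Of 5 endothelial markers VWF alone was detected, at the minimum of 10 counts, and TIE1, CLDN5 and EMCN were at 0.

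Reads were spread very unevenly over the members, in a graded fall. Of the 66 members, 36 were detected (54.5%), against 69.7% of all protein-coding genes. A further 10 had 1 to 9 counts, and 20 were at 0 (30.3%), against 21.2% of all protein-coding genes. Of the detected members, 26 had fewer than 1000 counts. The other 10 had at least 1000 counts (15.2% of the 66), against 26.6% of all protein-coding genes. The median over all 66 members was 17 counts, or 0.68 CPM, and the median over all 19056 protein-coding genes was 246 counts, or 9.83 CPM. By family, 12 of 23 MMP, 11 of 20 ADAM, 10 of 19 ADAMTS and 3 of 4 TIMP genes were detected. Members just above the minimum were ADAM32 with 13 counts, ADAMTS4 with 14 and ADAM21 with 16, and those just below it were MMP21 with 9 counts and ADAM20 with 7.

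Together the members took 42701 counts, or 0.171% of the library (0.169 to 0.172). The ADAM family held 17322 of these counts (40.6% of the members' total), the MMP family 12399 (29.0%), the TIMPs 9950 (23.3%) and the ADAMTS family 3030 (7.10%). The 4 TIMP genes thus had more reads than the 19 ADAMTS genes. Summed MMP counts were 1.25 times (1.21 to 1.28) summed TIMP counts, a ratio of read numbers that mixes genes of different length.

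**Figure D1:**
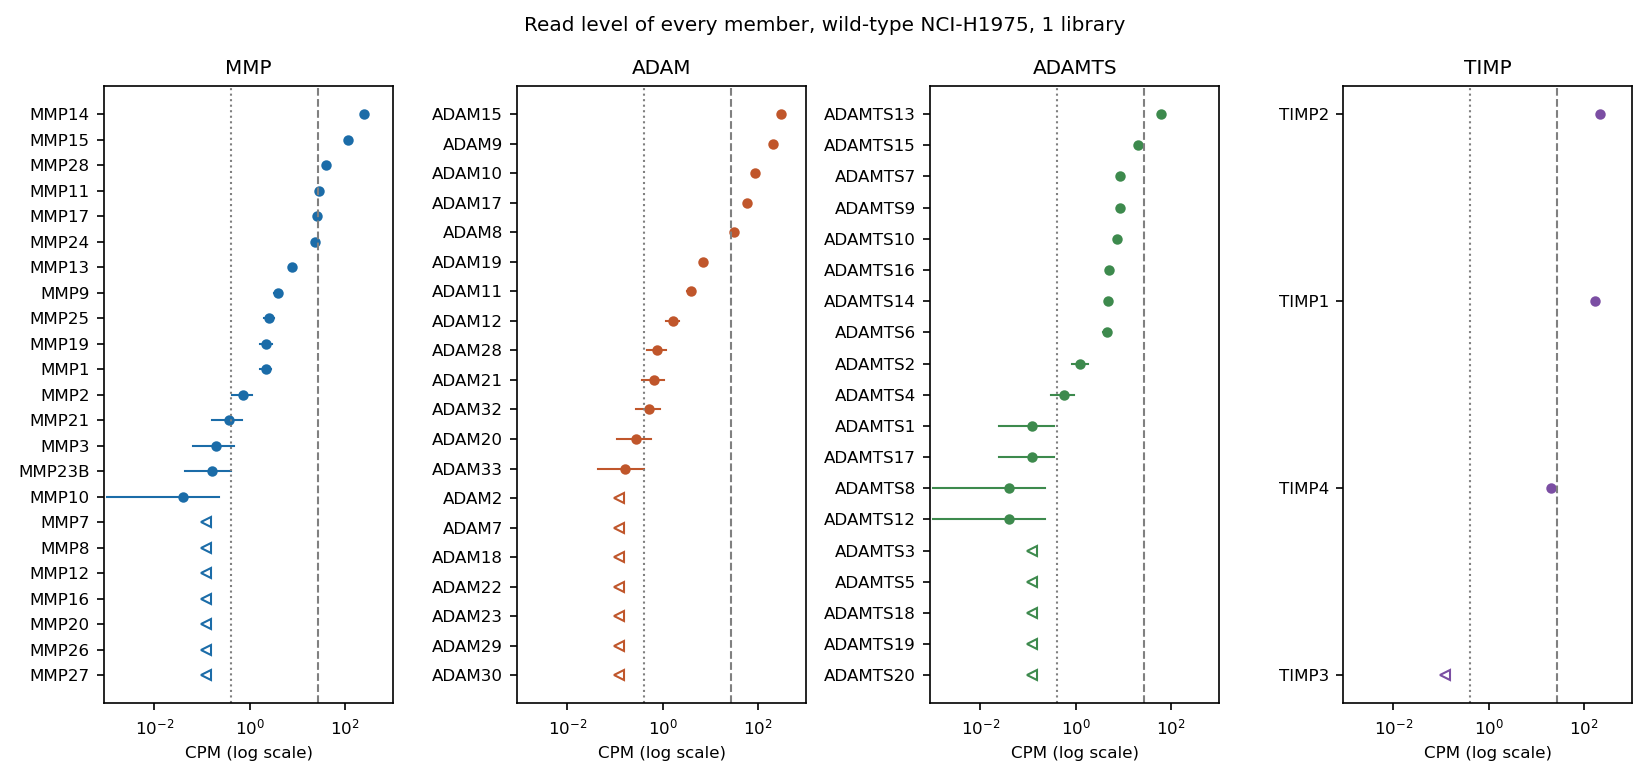
Level of all 66 members in the 1 wild-type library, in CPM on a log axis, 1 panel per family. Points with lines are levels with 95% Poisson intervals, and open triangles mark members at 0 counts, drawn at the limit of 0.12 CPM; the dotted line is the minimum of 10 counts and the dashed line the median detected protein-coding gene (26.4 CPM). Each of the protease families falls off from 1 leading gene to a tail of 5 to 7 members at 0, and TIMP3 stands apart from the other TIMPs.

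Among the MMPs, reads came mainly from the membrane-type enzymes, which stay on the cell surface. The 6 membrane-type genes held 10243 of the family's 12399 counts (82.6%, 81.9 to 83.3), and 5 of the 6 were detected. MMP14 (ENSG00000157227.12_2), also called MT1-MMP, which cleaves collagen at the cell surface and activates the MMP2 precursor there, had 6116 counts, or 245 CPM (238 to 251). It alone held 49.3% of MMP counts (48.4 to 50.2) and lay above 95.2% of detected protein-coding genes. MMP15 (ENSG00000102996.4_2), the transmembrane enzyme MT2-MMP, had 2823 counts, or 113 CPM (109 to 117). The ratio of MMP14 to MMP15 counts was 2.17 (2.07 to 2.27), and both genes together held 72.1% of MMP counts.

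The remaining membrane-type genes were lower. MMP17, which is held in the membrane by a lipid anchor, had 649 counts, or 25.9 CPM (24.0 to 28.0), close to the median detected protein-coding gene. MMP24, a transmembrane enzyme best known from the nervous system, had 591 counts, or 23.6 CPM (21.8 to 25.6). MMP25, the other lipid-anchored enzyme and known from leukocytes, had 64 counts, or 2.56 CPM (1.97 to 3.27). MMP16 (MT3-MMP) was at 0, which separates it from its transmembrane relatives MMP14, MMP15 and MMP24.

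Secreted MMPs with more than 500 counts were MMP28 and MMP11. MMP28, or epilysin, a protease of epithelia, had 1008 counts, or 40.3 CPM (37.8 to 42.9), and exceeded 62.1% of detected protein-coding genes. MMP11, or stromelysin-3, which is activated inside the cell by furin-type convertases, had 712 counts, or 28.5 CPM (26.4 to 30.6). The other stromelysins, MMP3 and MMP10, had 5 counts and 1 count. Thus 1 of 3 stromelysins was detected, and that one held 712 of their 718 counts.

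The secreted collagenases and gelatinases had few reads beside membrane-bound MMP14. Among the 3 collagenases MMP13 had 193 counts, or 7.72 CPM (6.67 to 8.88), MMP1 had 54 counts, or 2.16 CPM (1.62 to 2.82), and MMP8, the neutrophil collagenase, was at 0. Among the gelatinases MMP9 had 97 counts, or 3.88 CPM (3.14 to 4.73), and MMP2 had 18 counts, or 0.72 CPM (0.43 to 1.14). Gelatinases took 0.927% of MMP counts (0.766 to 1.11) and collagenases 1.99% (1.75 to 2.25). MMP2, whose precursor MMP14 activates, had 0.00294 times (0.00174 to 0.00466) the counts of MMP14. Both matrilysins, MMP7 and MMP26, were at 0.

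Of the other MMPs MMP19, a broadly acting matrix protease, had 55 counts, or 2.20 CPM (1.66 to 2.86). MMP21 had 9 counts and MMP23B had 4, both under the minimum. The macrophage elastase MMP12, the enamel protease MMP20 and MMP27 were at 0. MMP23A, a pseudogene outside the members, was also at 0.

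**Figure D2:**
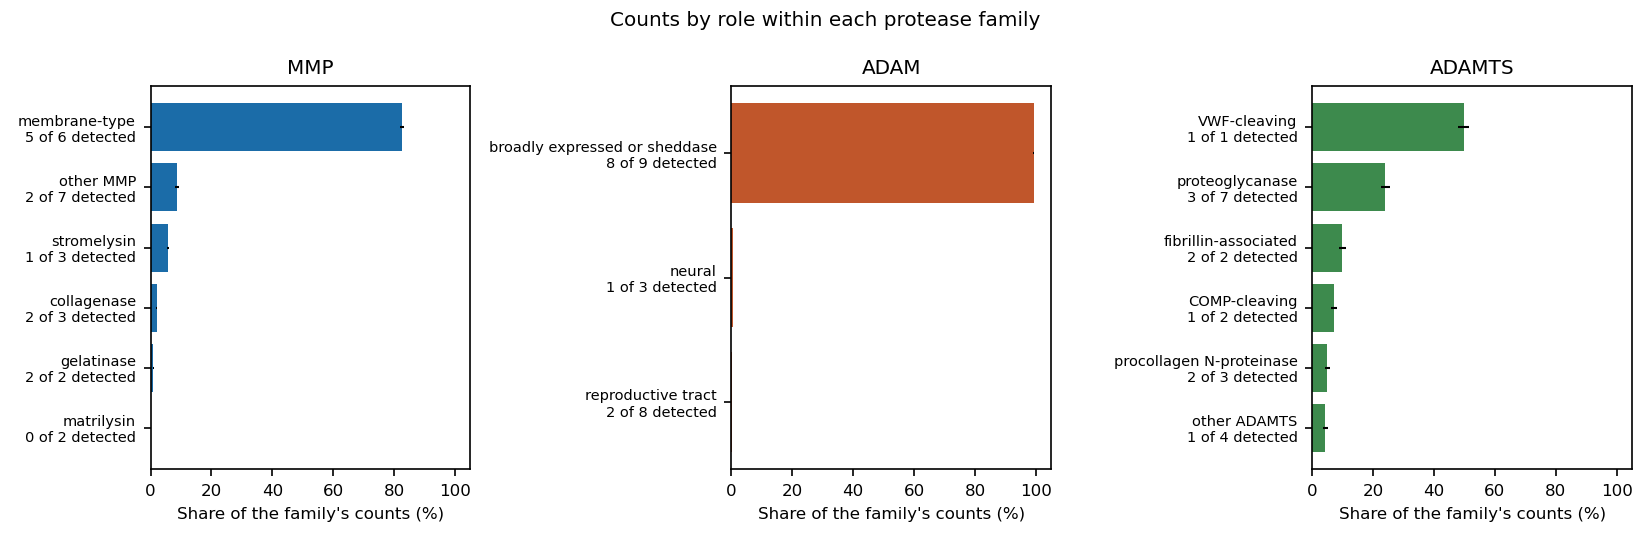
Share of each protease family's counts (bars, in percent, with 95% binomial intervals) by role, with the number of detected members under each role name. Membrane-type genes hold 82.6% of MMP counts, and the von Willebrand factor protease ADAMTS13 49.7% of ADAMTS counts. The role of broadly expressed ADAMs and sheddases, which takes in every ADAM outside the other ADAM roles, holds 99.2% of ADAM counts.

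Several members lie next to each other on a chromosome with no other protein-coding gene between them in the RefSeq gene order. Detection differed within most of these runs. The longest run has 9 MMP genes on chromosome 11, in the order MMP7, MMP20, MMP27, MMP8, MMP10, MMP1, MMP3, MMP12 and MMP13. Only MMP1 and MMP13 were detected there, 5 genes were at 0, and the whole run held 253 counts, of which MMP13 at its end had 193. The collagenases MMP13 and MMP1 therefore had reads beside neighbours with 0 to 5. On another stretch of chromosome 11 ADAMTS15 had 499 counts beside ADAMTS8 with 1. On chromosome 8 ADAM9 had 5037 counts and its neighbour ADAM32 had 13, with ADAM18 and ADAM2 at 0. ADAM21 and ADAM20 on chromosome 14 had 16 and 7 counts, close to the minimum on either side. ADAMTS1 and ADAMTS5 on chromosome 21 had 3 and 0, so neither was detected.

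**Figure D3:**
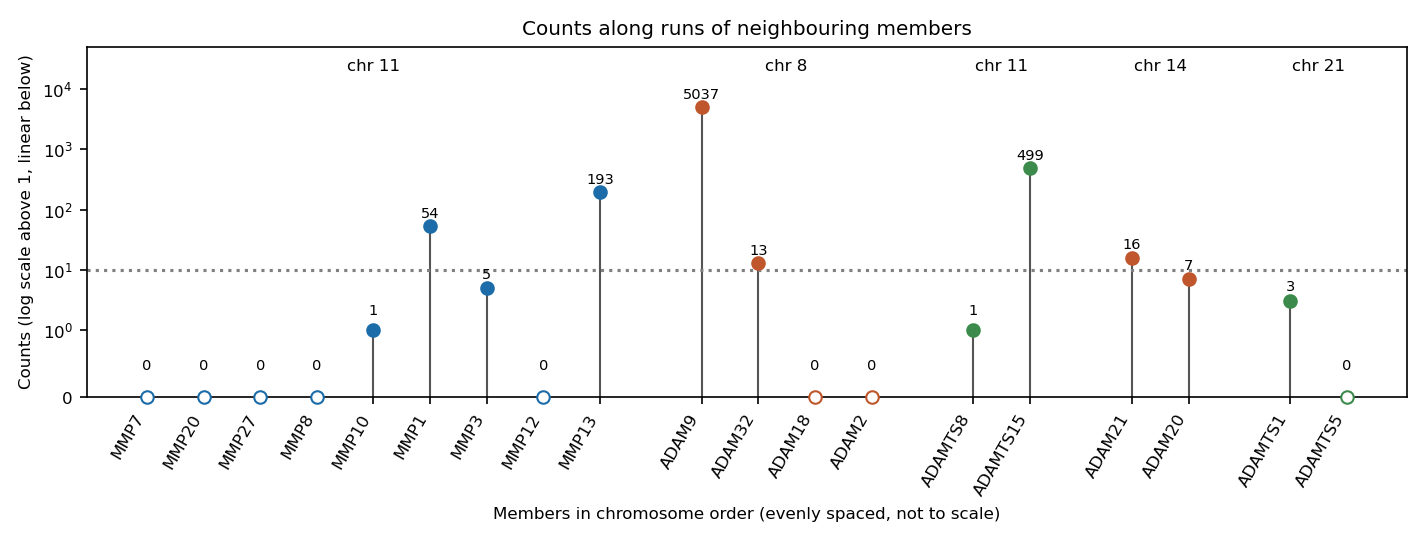
Counts of members that neighbour each other, in chromosome order and evenly spaced, on an axis that is logarithmic above 1 count and linear below. Open circles are at 0 and the dotted line is the minimum of 10 counts. In the run of 9 MMP genes MMP1 (54) and MMP13 (193) rise above the line, while ADAM9 (5037) and ADAMTS15 (499) stand far above their neighbours.

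To show what lies before the start of members with many reads and members at 0, the 250 bases upstream of the RefSeq start are printed for 6 genes. They are, for each family, the member with the most counts among those with a sequence in the RefSeq table (MMP14, ADAM15, ADAMTS13, TIMP1), and the first 2 members at 0 in the MMP run on chromosome 11 (MMP7 and MMP20). Coordinates are of GRCh38.p14, a newer build than the hg19 of the submitters' notes, and each sequence reads toward the gene on its own strand. Capitals mark matches on either strand to the TATA box letters TATAAA, the AP-1 letters TGANTCA and the AP-2 letters GCCNNNGGC, which do not overlap in these windows. Here N is any base, so the AP-1 letters searched are wider than the usual AP-1 site, TGA(C/G)TCA. AP-1 is a factor family well known at MMP promoters, and TFAP2A belongs to the AP-2 family.
MMP14, chr14:22836335-22836584, plus strand: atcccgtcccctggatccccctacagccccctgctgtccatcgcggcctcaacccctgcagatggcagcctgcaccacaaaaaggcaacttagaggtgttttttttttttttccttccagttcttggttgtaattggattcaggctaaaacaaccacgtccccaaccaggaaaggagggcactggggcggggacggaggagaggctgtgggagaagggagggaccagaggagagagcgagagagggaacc
ADAM15, chr1:155051066-155051315, plus strand: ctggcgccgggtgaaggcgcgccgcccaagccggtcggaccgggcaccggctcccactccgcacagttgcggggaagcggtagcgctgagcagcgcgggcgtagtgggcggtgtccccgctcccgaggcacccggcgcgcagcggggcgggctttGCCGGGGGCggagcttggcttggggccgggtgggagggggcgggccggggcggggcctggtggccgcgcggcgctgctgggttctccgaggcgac
ADAMTS13, chr9:133422117-133422366, plus strand: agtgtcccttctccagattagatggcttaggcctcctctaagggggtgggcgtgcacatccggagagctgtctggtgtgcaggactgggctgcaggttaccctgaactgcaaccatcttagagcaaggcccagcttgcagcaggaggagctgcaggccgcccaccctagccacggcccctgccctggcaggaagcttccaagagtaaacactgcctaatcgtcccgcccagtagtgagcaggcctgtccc
TIMP1, chrX:47582186-47582435, plus strand: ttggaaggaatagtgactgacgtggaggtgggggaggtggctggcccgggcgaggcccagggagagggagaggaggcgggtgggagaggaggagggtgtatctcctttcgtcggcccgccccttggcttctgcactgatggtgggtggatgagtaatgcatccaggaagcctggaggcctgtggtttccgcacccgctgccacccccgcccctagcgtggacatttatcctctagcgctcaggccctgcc
MMP7, chr11:102530748-102530997, minus strand: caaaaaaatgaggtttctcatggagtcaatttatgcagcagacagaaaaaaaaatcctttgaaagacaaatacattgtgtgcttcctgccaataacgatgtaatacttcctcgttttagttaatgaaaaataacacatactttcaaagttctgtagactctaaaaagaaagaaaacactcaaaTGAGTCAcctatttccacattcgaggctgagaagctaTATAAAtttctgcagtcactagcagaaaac
MMP20, chr11:102625333-102625582, minus strand: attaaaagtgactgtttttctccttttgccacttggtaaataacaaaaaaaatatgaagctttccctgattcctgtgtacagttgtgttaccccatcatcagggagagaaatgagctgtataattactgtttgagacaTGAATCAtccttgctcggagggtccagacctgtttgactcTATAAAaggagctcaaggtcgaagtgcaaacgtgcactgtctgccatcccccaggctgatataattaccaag

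The windows of MMP7 and MMP20, both at 0 counts, each held 1 TATA match, 1 match to the AP-1 letters and no AP-2 match. The AP-1 match of MMP7 reads TGAGTCA, and that of MMP20 reads TGAATCA, which lies outside the usual site. The window of ADAM15, with 7588 counts, held 1 AP-2 match and neither of the others. Those of MMP14 (6116 counts), ADAMTS13 (1506 counts) and TIMP1 (4135 counts) held none of the 3. Bases G and C made up 33.6% of the MMP7 window and 41.6% of the MMP20 window, against 56.8% for MMP14, 61.2% for ADAMTS13, 64.8% for TIMP1 and 79.6% for ADAM15. ADAM15 had 36 CG dinucleotides in 250 bases, TIMP1 had 12, MMP14 had 7, ADAMTS13 had 6, and MMP7 and MMP20 had 3 each. Among 27305 RefSeq windows of this length 11.1% held the TATA letters, 6.60% the AP-1 letters and 19.7% the AP-2 letters. The table had a window for 39 of 66 members, of which 7, 4 and 13 held these letters. Variants of these letters, such as TGAGTAA in the TIMP1 window, were not searched for. These matches describe letters, not binding, and the start used in these cells was not measured. The ADAMTS13 start lies inside a wider RefSeq span of that gene. With windows for 59.1% of members, these were too few to compare base content or motifs between detected and undetected members.

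The ADAM reads came almost wholly from members outside the nerve and reproductive tract groups. These members, labelled broadly expressed or sheddase, are a remainder group that also takes in ADAM8, ADAM12 and ADAM28. Its share therefore shows mainly that the other groups had few reads. These 9 genes held 17188 of 17322 ADAM counts (99.2%, 99.1 to 99.4), with 8 detected and none at 0. ADAM15 (ENSG00000143537.13_3), a membrane protease whose disintegrin domain binds integrins, had 7588 counts, or 303 CPM (297 to 310), the highest count of all 66 members. It lay above 96.4% of detected protein-coding genes and held 43.8% of ADAM counts. ADAM9 (ENSG00000168615.11_2), a widely expressed protease of the cell surface, had 5037 counts, or 201 CPM (196 to 207).

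ADAM10 and ADAM17 are the main sheddases of mammalian cells. ADAM10 (ENSG00000137845.14_3), which cuts Notch receptors and E-cadherin, had 2098 counts, or 83.9 CPM (80.3 to 87.5). ADAM17 (ENSG00000151694.13_3), which releases tumour necrosis factor and several ligands of the epidermal growth factor receptor, had 1465 counts, or 58.6 CPM (55.6 to 61.6). The ratio of ADAM10 to ADAM17 counts was 1.43 (1.34 to 1.53), that of ADAM9 to ADAM10 was 2.40 (2.28 to 2.53) and that of ADAM15 to ADAM17 was 5.18 (4.90 to 5.48). These 4 genes held 93.5% of ADAM counts (93.1 to 93.8).

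ADAM8, first known from leukocytes, had 764 counts, or 30.5 CPM (28.4 to 32.8), and exceeded 53.9% of detected protein-coding genes. ADAM19 had 172 counts, or 6.88 CPM (5.89 to 7.98), and ADAM12, a protease of muscle, placenta and tumours, had 41 counts, or 1.64 CPM (1.18 to 2.22). ADAM28, known from lymphocytes, had 19 counts and ADAM33 had 4. Beside the 764 counts of ADAM8, the leukocyte markers PTPRC, LYZ, CD3E, TYROBP and AIF1 each had 0 to 2 counts in the same library.

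The ADAMs of nerve tissue and the reproductive tract were mostly without reads. ADAM11, a brain protein that lacks protease activity, had 98 counts, or 3.92 CPM (3.18 to 4.77), while its relatives ADAM22 and ADAM23, which are receptors for a secreted synaptic protein, were at 0. Of 8 members known from testis or epididymis, ADAM21 with 16 counts and ADAM32 with 13 were detected, ADAM20 had 7, and ADAM2, ADAM7, ADAM18, ADAM29 and ADAM30 were at 0. The 8 genes held 36 counts in all. Among related pseudogenes ADAM20P1 had 28 counts, more than the 7 of ADAM20 or the 16 of ADAM21, and how the authors' counting treated reads shared by these similar genes is unknown.

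ADAMTS reads were led by a single gene. ADAMTS13 (ENSG00000160323.18_3), the protease that cuts von Willebrand factor in blood, had 1506 counts, or 60.2 CPM (57.2 to 63.3), and held 49.7% of ADAMTS counts (47.9 to 51.5). It lay above 72.6% of detected protein-coding genes. VWF, the gene of its substrate, had 10 counts. The span of ADAMTS13 overlaps that of REXO4, which had 1462 counts.

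The 7 proteoglycan-cutting ADAMTS genes held 726 counts, and 3 were detected. ADAMTS15 had 499 counts, or 19.9 CPM (18.2 to 21.8), and ADAMTS9 had 209 counts, or 8.36 CPM (7.26 to 9.57). ADAMTS4, an aggrecanase of cartilage, had 14 counts, or 0.56 CPM (0.31 to 0.94). ADAMTS1, which also restrains vessel growth, had 3 counts, ADAMTS8 had 1, and ADAMTS5, the other main aggrecanase, and ADAMTS20 were at 0. The ratio of ADAMTS1 to ADAMTS4 counts, 0.214, had an interval of 0.0395 to 0.768 at these low counts. Of the proteoglycans they cut, versican (VCAN) had 9940 counts and aggrecan (ACAN) was at 0.

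The other ADAMTS genes had at most 215 counts. Fibrillin-associated ADAMTS10 and ADAMTS6 had 185 and 115 counts, or 7.40 CPM (6.37 to 8.54) and 4.60 CPM (3.80 to 5.52). ADAMTS7, a protease of cartilage oligomeric matrix protein, had 215 counts, or 8.60 CPM (7.48 to 9.82), and its close relative ADAMTS12 had 1. Among the procollagen N-proteinases, which trim newly made collagen, ADAMTS14 had 121 counts, or 4.84 CPM (4.01 to 5.78), ADAMTS2 had 31, or 1.24 CPM (0.84 to 1.76), and ADAMTS3 was at 0. ADAMTS16 had 127 counts, or 5.08 CPM (4.23 to 6.04), ADAMTS17 had 3, and ADAMTS18 and ADAMTS19 were at 0. The ADAMTS7 pseudogenes had 0 or 1 count each.

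Of the inhibitors, TIMP2 and TIMP1 were high, TIMP4 intermediate and TIMP3 at 0. TIMP2 (ENSG00000035862.12_3), which bridges MMP14 and the MMP2 precursor on the cell surface, had 5302 counts, or 212 CPM (206 to 218), and TIMP1 (ENSG00000102265.11_2) had 4135 counts, or 165 CPM (160 to 170). TIMP1 had 0.78 times (0.749 to 0.812) the counts of TIMP2, and MMP14 had 1.15 times (1.11 to 1.20) those of TIMP2. TIMP4 (ENSG00000157150.4_2), known from heart and brain, had 513 counts, or 20.5 CPM (18.8 to 22.4), and held 5.16% of TIMP counts. TIMP3, which binds to the matrix and is the TIMP that blocks ADAM17, was at 0, and 3 counts would be 0.0302% of TIMP counts.

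TIMP1 blocks many MMPs. Read numbers of 3 secreted MMPs and of ADAMTS1 were set against it, without regard to whether TIMP1 blocks each of them. MMP9 had 0.0235 times (0.019 to 0.0287) and MMP1 0.0131 times (0.00979 to 0.0171) the counts of TIMP1. MMP7 was at 0 against 4135 counts of TIMP1, and ADAMTS1 had 0.000726 times (0.00015 to 0.00212) the counts of TIMP1. Other secreted members had more reads than these, led by ADAMTS13 with 1506 counts, MMP28 with 1008 and MMP11 with 712.

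Some members share their stretch of the genome with another gene, and since no source used here gives the strand setting of the authors' counting, reads of such pairs could have been assigned to either gene. By the widest RefSeq gene spans, which may differ from the annotation the authors counted on, 11 of the 35 detected members examined overlapped a gene with at least 10 counts. In 8 of these pairs the member had more counts. TIMP1 and TIMP4 overlap synapsin genes, and TIMP1 had 4135 counts against 21 for SYN1, and TIMP4 had 513 against 14 for SYN2. In 3 pairs the member had fewer counts: MMP24 had 591 against 1288 for MMP24OS, MMP25 had 64 against 980 for MMP25-AS1, and MMP19 had 55 against 1367 for TMEM198B. ADAM17 had 1465 counts against 791 for IAH1, ADAM9 had 5037 against 585 for TM2D2, and MMP9 had 97 against 67 for SLC12A5-AS1. The values of MMP24, MMP25, MMP19, MMP9, ADAM9, ADAM17 and ADAMTS13 are uncertain for this reason. The part of the overlap in them was not tested. The same holds for the ratios of ADAM10 and ADAM15 to ADAM17, of ADAM9 to ADAM10 and of MMP9 to TIMP1. It also holds for the family and role shares that include these genes, whose intervals cover counting error only.

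**Figure D4:**
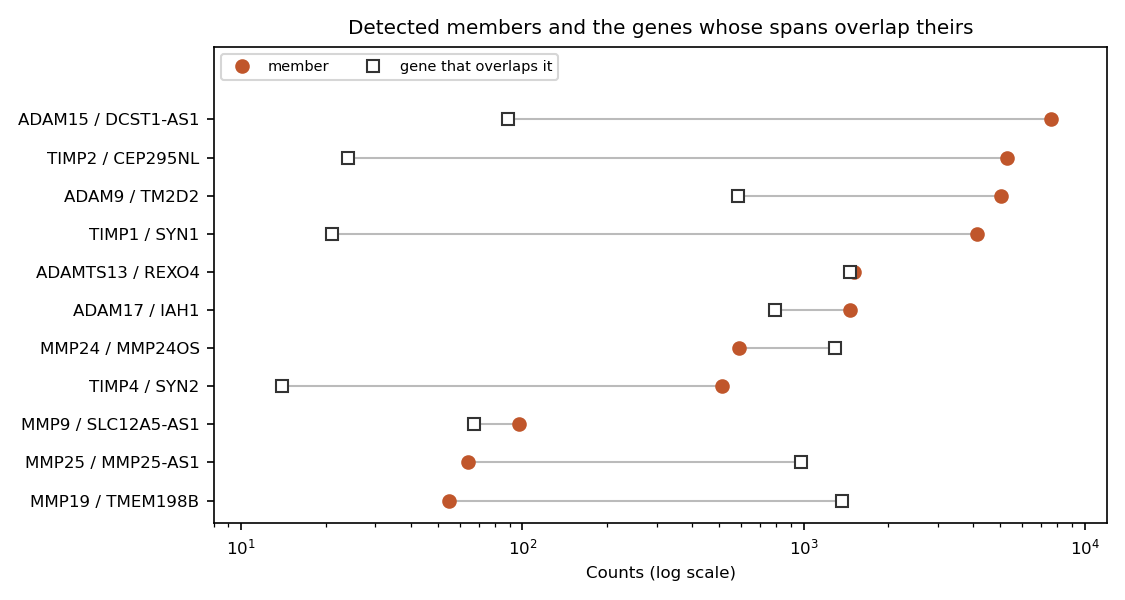
Counts, on a log axis, of 11 detected members whose span overlaps a gene with at least 10 counts (filled circles) and of that gene (open squares). ADAM15, TIMP2, ADAM9, TIMP1 and TIMP4 lie far to the right of their partners, ADAMTS13 and REXO4 nearly coincide, and MMP19, MMP25 and MMP24 lie to the left of theirs.

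Partners that mature or steer these proteases were read in the same library, in which 69.7% of all protein-coding genes were detected. Among 7 proprotein convertases, which remove prodomains, 4 were detected (57.1%), led by FURIN with 4050 counts, PCSK7 with 1978 and PCSK4 with 594, and PCSK6, PCSK1 and PCSK2 had 6, 1 and 0. All 6 tetraspanins that escort ADAM10 were detected, led by TSPAN15 with 4109 counts, TSPAN17 with 2699 and TSPAN14 with 2111. All 3 parts of the iRhom complex that escorts ADAM17 were detected, with 2182 counts for RHBDF1, 2060 for RHBDF2 and 1414 for FRMD8. The glycosylation enzymes of ADAMTS thrombospondin repeats, POFUT2 and B3GLCT, had 1258 and 157 counts.

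Of 10 other inhibitors and modulators 7 were detected (70.0%), a share close to the 69.7% of all protein-coding genes. Basigin (BSG), a surface protein that induces MMPs, had 27199 counts, the proteoglycan SPOCK1 had 2561 and PCOLCE, an enhancer of procollagen processing, had 629. RECK, a membrane-anchored inhibitor of MMPs, had 95 counts, and the plasma inhibitors A2M and PZP and the proteoglycan SPOCK3 were at 0. Of 6 ADAMTS-like proteins and papilin 5 were detected (83.3%; 3 at a minimum of 50 counts), led by PAPLN with 1278 counts, ADAMTSL5 with 803 and ADAMTSL4 with 219, and ADAMTSL3 was at 0. Of 9 other metalloproteases 4 were detected (44.4%), led by CPD with 9073 counts, ECE1 with 8027 and the procollagen C-proteinase BMP1 with 5066. TLL1 had 1 count, and MEP1A, MEP1B, ADAMDEC1 and MME were at 0.

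Genes of known substrates were detected at shares from 72.7% to 93.1%, against 69.7% of all protein-coding genes. The shares of the ADAMTS substrates (72.7%) and the matrix substrates (76.9%) lay near that of all protein-coding genes. Of 29 sheddase substrates 27 were detected (93.1%), with a median of 57.7 CPM, led by APP with 19051 counts, PTPRF with 15949 and CD44 with 11793. N-cadherin (CDH2) had 4 counts and TNF, the substrate for which ADAM17 was named, was at 0. Of 13 matrix substrates of MMPs 10 were detected (76.9%), with a median of 164 CPM, led by FN1 with 34838 counts, TNC with 26773 and LAMB3 with 24303. Among the collagens COL5A1, COL7A1, COL1A1, COL1A2 and COL18A1 had 17047, 10581, 7847, 4104 and 3503 counts. COL4A2, COL4A1, COL3A1 and COL2A1 had 13, 8, 2 and 0. Of 11 ADAMTS substrates 8 were detected (72.7%; 5 at a minimum of 50 counts), led by VCAN, THBS1 with 7473 counts and LTBP1 with 1671. COMP had 3 counts, and ACAN and FBN2 were at 0. The median of the ADAMTS substrates was 1.04 CPM, against 9.83 CPM for all protein-coding genes. Medians over whole groups were 0.72 CPM for MMPs, 0.58 CPM for ADAMs, 0.56 CPM for ADAMTS and 92.9 CPM for TIMPs.

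**Figure D5:**
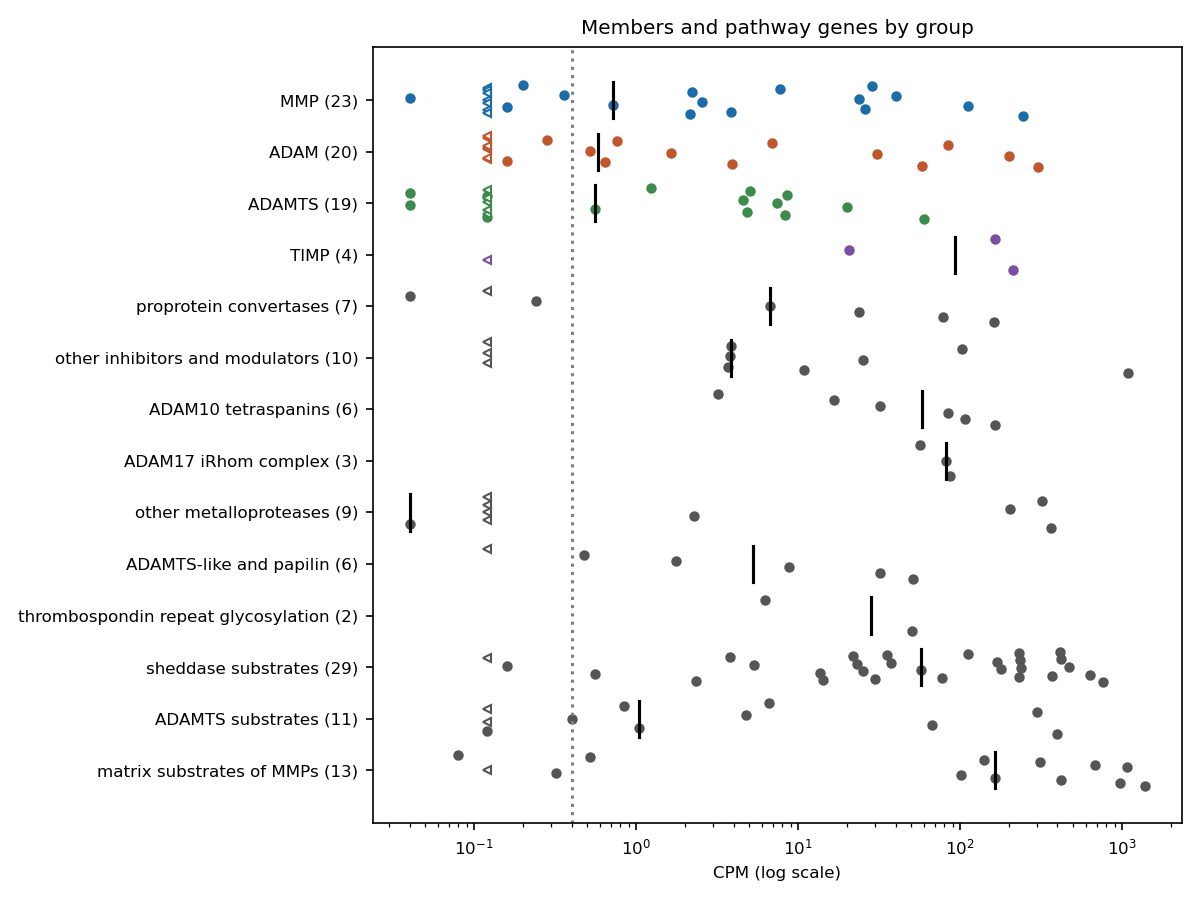
CPM on a log axis of the members by family (coloured) and of the pathway genes by group (grey), with the number of genes in brackets. Each point is 1 gene, open triangles are genes at 0 counts drawn at 0.12 CPM, vertical bars are medians over all genes of the group and the dotted line is 10 counts. The MMP, ADAM and ADAMTS medians (0.72, 0.58 and 0.56 CPM) lie near the dotted line. Medians of the grey groups run from 0.04 CPM (other metalloproteases) to 164 CPM (matrix substrates of MMPs). Between these lie the ADAMTS substrates (1.04 CPM), the ADAM10 tetraspanins (58.3 CPM) and the ADAM17 iRhom complex (82.4 CPM).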

How the data were processed

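The authors deposited, for each gene, an unnormalised whole-number count of reads under an Ensembl identifier, in a file without a header. Per the labels' protocols, a directional library was made from total RNA. The submitters' processing notes name STAR, featureCounts and the build hg19, among tools for both assays, without roles. Which annotation and strand setting were used, and what became of reads with several matches, no source used here states.

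Identifiers were matched without version to symbols (56373 of 60880 rows, 99.8% of counts). Gene type, neighbours and overlaps came from a RefSeq gene table (GRCh38.p14), whose spans set the order and overlap of genes and are not printed, and promoters from RefSeq sequences of that build. The overlap of 1 detected member is not reported here. The 41 rows for Y copies of pseudoautosomal genes held 0 counts and got no symbol. CPM used the total of all rows. Levels have exact (Garwood) 95% Poisson intervals, with 3 counts as the one-sided limit at 0, shares exact binomial ones and ratios the matching conditional ones. Members, gene lists, roles and ratios were chosen with earlier results of these data known. Every member is named, and from each pathway list at least the 3 highest and those under 10 counts. Ratios per kilobase and a split by the zinc-binding motif were planned but not run, as they need protein lengths and sequences that were not used here. Detection was repeated at minima of 1 count, 50 counts and 1 CPM and after random thinning to 50%, and totals without 37 mitochondrial genes or the 10 highest genes. The intervals were run on Poisson counts simulated for genes with at least 10 counts. This checks their computation only, not the limit at 0 or whether real counts are Poisson. Scripts ran under Python 3.11.15 with SciPy 1.17.1, pandas 2.3.3, NumPy 2.4.6 and Matplotlib 3.10.9.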

Additional observations from a re-analysis of the deposited data

How the results depend on the processing

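The count of detected members stayed within 1.5 times of its value for all families together and for the MMP, ADAMTS and TIMP families. This held under minima of 1 count, 50 counts and 1 CPM and after thinning to 50%. The exception was the ADAM family, with 7 detected members at a minimum of 50 counts against 11. At that minimum the ADAMTS-like list also moved, to 3 against 5, and the ADAMTS substrates to 5 against 8. Allowing every gene type could not change the count of detected members, because it added only 3 pseudogenes with 0 counts in all. Shares of the library without mitochondrial genes and without the 10 genes with the highest counts became 0.0524% and 0.0533% for MMPs, 0.0732% and 0.0745% for ADAMs, 0.0128% and 0.0130% for ADAMTS, and 0.0420% and 0.0428% for TIMPs, because every CPM is multiplied by 1.06 and 1.08. Thinning was a single random draw. After it, the ratio of ADAM10 to ADAM17 counts was 1.337, just under its lower limit of 1.339. That of ADAM9 to ADAM10 was 2.56, also outside its interval. The other 11 ratios stayed inside, among them MMP7 to TIMP1, which at 0 counts of MMP7 could not move. Ratios and shares per kilobase and the split by zinc-binding motif were not run. No paired analysis was possible because 1 library had values. A member at 0 could lie up to the one-sided limit of 0.12 CPM (3 counts), and replicate spread is unknown.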
